A study of Mus musculus with 7 samples.

Results

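The 10 genes described here encode transcription regulators of undifferentiated spermatogonia, the male germ cells that include the stem cells of the testis. They were chosen by symbol: every probe set annotated to exactly 1 of Id4, Zbtb16, Bcl6b, Lhx1, Pou5f1, Taf4b, Neurog3, Sall4, Eomes or Utf1 was kept. This gave 22 probe sets for all 10 genes among the 45101 probe sets of the array design used for cultured cells, and 12 probe sets for 9 genes among the 12488 of the design used for whole testis, which had none for Taf4b. RNA was measured on 7 mouse arrays, each a group of its own: whole testis at 4 weeks of age from ERM knockout and from wild-type mice, primary Sertoli cells from ERM knockout mice at 4 weeks and at 10 weeks and from wild-type mice at 4 weeks, and TM4 cells with and without transfection of ERM. Sertoli cells support germ cells from within the seminiferous tubule, and the mouse line TM4 is of Sertoli cell origin. ERM is the ETS transcription factor encoded by Etv5. The labels give neither the strain, the allele, the number of animals or cultures behind an array, nor the transfected construct. The testis and cell arrays have different designs, so no level is compared between them. With 1 array a group there is no replicate spread and no test, and each value below is the reading of a single array.

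Spermatogonial stem cells either renew themselves or enter differentiation, and glial cell line-derived neurotrophic factor (GDNF) from Sertoli cells favours renewal. In cultured spermatogonia GDNF is known to raise Etv5, Bcl6b, Lhx1 and Id4. Id proteins pair with basic helix-loop-helix factors and keep them from DNA, whereas Neurog3 is such a factor itself and marks undifferentiated cells close to differentiation. Zbtb16 (PLZF) and Sall4 are zinc finger proteins needed to maintain the undifferentiated pool, Taf4b is a gonadal subunit of the general factor TFIID, Eomes is a T-box factor, and Pou5f1 (Oct4) and Utf1 are shared with pluripotent cells.

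Because ERM binds DNA through an ETS domain, whose core motif is GGAA, the promoters of the members were searched for ETS motifs. RefSeq (GRCm38.p6) promoters, from 250 bases before to 50 after a start site, were at hand for 6 of the 10 members in 7 windows: Id4, Lhx1, Pou5f1 with a pair of starts, Neurog3, Eomes and Utf1. On either strand, GGAA was in all 7 windows, as in 96.0% of 32841 mouse promoters. The longer CCGGAA, which contains the core, was in that of Neurog3 alone, against 14.9% of all promoters. The full consensus CCGGAAGT was in none of them and in 3.89% of all. The E-box CANNTG, bound by basic helix-loop-helix factors, was in the windows of Neurog3 and Pou5f1 and in 72.3% of all promoters. The windows of 3 genes are printed from their upstream end on the plus strand. Id4 (chr13:48260866-48261165) is shown as the member with the widest range among the arrays and Utf1 (chr7:139943606-139943905) as the member with the lowest ratio in TM4, both with GGAA or its reverse complement in capitals. Neurog3 (chr10:62132840-62133139) is shown for its CCGGAA, in capitals. A match describes the letters and does not show binding.
Id4: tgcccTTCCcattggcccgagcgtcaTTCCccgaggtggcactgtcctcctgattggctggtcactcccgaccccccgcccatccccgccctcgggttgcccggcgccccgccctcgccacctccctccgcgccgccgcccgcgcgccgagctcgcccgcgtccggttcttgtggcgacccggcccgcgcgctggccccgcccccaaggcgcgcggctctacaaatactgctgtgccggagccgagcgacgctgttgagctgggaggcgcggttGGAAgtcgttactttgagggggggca
Utf1: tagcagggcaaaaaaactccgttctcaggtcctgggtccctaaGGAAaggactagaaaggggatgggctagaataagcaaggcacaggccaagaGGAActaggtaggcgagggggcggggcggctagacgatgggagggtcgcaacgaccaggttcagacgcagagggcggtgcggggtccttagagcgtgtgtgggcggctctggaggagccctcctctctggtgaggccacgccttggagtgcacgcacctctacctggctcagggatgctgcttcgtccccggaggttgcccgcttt
Neurog3: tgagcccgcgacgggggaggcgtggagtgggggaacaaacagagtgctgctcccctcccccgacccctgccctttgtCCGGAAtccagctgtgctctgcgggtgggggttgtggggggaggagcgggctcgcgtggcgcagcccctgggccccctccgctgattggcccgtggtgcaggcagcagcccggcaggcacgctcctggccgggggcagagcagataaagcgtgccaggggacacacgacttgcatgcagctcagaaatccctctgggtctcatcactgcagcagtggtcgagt

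Scaling set the trimmed mean of each array to 500, and readings below 100 were treated as being at a floor. Where a single array of a pair lay under the floor the ratio is a limit, written "at least", and no ratio is given where both did. The array of labelled knockout Sertoli cells at 4 weeks stood apart in its 18S ribosomal RNA control, which read 4551 at the 5′ end against 352 on the 10-week knockout array and 349 on the wild-type array. The 3 Etv5 probe sets were not lower on the arrays labelled knockout. Etv5 1428142_at read 910 at 4 weeks and 995 at 10 weeks in knockout Sertoli cells, against 709.9 in wild-type cells. The TM4 readings of this probe set were 473 with ERM and 405 without it. The sources used here do not give where these probes lie relative to the deleted part of Etv5, so they do not check the labels, and every direction below follows the labels alone. Primary cells carried Sertoli cell genes, with summed levels over 10 markers, each by its brightest probe set on average over the 5 cell arrays, of 46895 on the 4-week and 43185 on the 10-week knockout array and 39692 on the wild-type array. In TM4 the sums were 2418 with and 2638 without ERM, and the Wt1 probe set was below the floor on both arrays. The TM4 sums depend on the probe set taken: Sox9 1433889_at, which entered them, read 150.3 with and 95.1 without ERM, whereas Sox9 1424950_at read 2518 with and 2869 without ERM and 1451538_at read 1062 with and 1072 without ERM. Primary preparations also carried germ cell RNA: the summed level of 6 germ cell markers, taken in the same way, was 10721 on the 4-week knockout array and 1442 on the 10-week knockout array, against 16164 on the wild-type array. It was 795 in TM4 with ERM and 867 in TM4 without ERM, where Ddx4, Mael and Tex101 were below the floor.

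In whole testis at 4 weeks no member differed 2-fold between the genotypes. Of 12 probe sets, 10 reached the floor on at least 1 array, and their log2 ratios of knockout over wild type ran from -0.27 to 0.19, with a median of -0.07 beside -0.02 over all 9297 probe sets compared. Across those, 0.602% were higher and 0.817% lower by 2-fold or more, so a count of 0 among 10 is near the background.

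Neurog3 read 1388 in knockout testis and 1215 in wild-type testis, with a log2 ratio of 0.19. Id4, which restrains basic helix-loop-helix factors, read 425 in knockout and 502 in wild-type testis, a log2 ratio of -0.24. Both differences were well under 2-fold. Zbtb16 read 683 in knockout and 649.6 in wild-type testis on 92201_at. Its 92202_g_at was near the floor, at 99.4 in knockout and 121 in wild-type testis. Pou5f1 read 479 in knockout and 533 in wild-type testis on 103075_at, and 326 in knockout and 376 in wild-type testis on 161159_r_at. The pluripotency factors were thus close to level between the genotypes, as Utf1, at 582 in knockout and 602 in wild-type testis, also was. Eomes 93880_at read 561 in knockout and 599 in wild-type testis. Lhx1, a LIM homeodomain factor, read 202 in knockout and 209 in wild-type testis. The repressor Bcl6b lay just above the floor, at 106 in knockout and 104 in wild-type testis. Readings below it came from Sall4, at 65.9 in knockout and 88.0 in wild-type testis, and from Eomes 103532_at, at 19.4 in knockout and 19.5 in wild-type testis. Between the brightest pair of probe sets of a gene, log2 ratios in this comparison had a robust SD per probe set of 0.18 for bright and 0.26 for dim genes, and no member lay beyond 2 such SD.

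**Figure D1:**
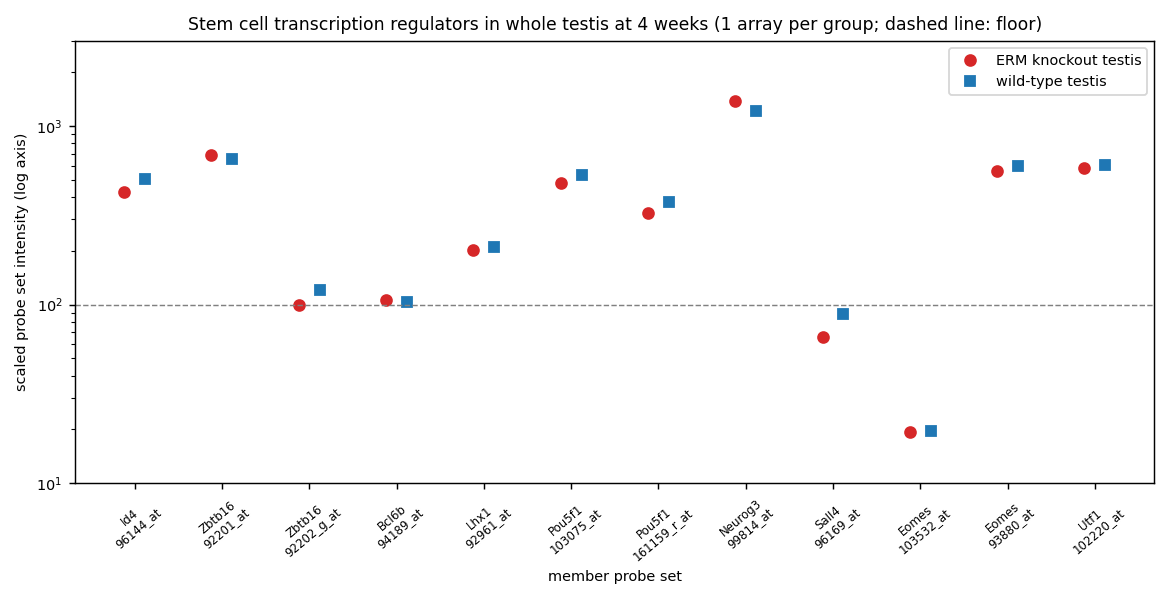
Scaled intensity (log axis) of the 12 member probe sets in ERM knockout (circles) and wild-type testis (squares), 1 array each, with the floor of 100 dashed. The markers of each pair lie close together, as for Neurog3 at 1388 in knockout and 1215 in wild-type testis.

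Some other germ cell genes did differ by 2-fold on the same testis arrays. Dazl, which encodes a germ cell RNA-binding protein, read 402 in knockout and 1364 in wild-type testis on 94750_at, a log2 ratio of -1.76, and its further probe set gave -1.75. Stra8, which marks commitment to meiosis, read 37.1 in knockout and 286 in wild-type testis, at least 2.86-fold lower, and the differentiation marker Crabp1 read 24.4 in knockout and 222 in wild-type testis, at least 2.22-fold lower. The other 9 of 11 probe sets of differentiating spermatogonia were within 2-fold, as was the germ cell helicase Ddx4, with a log2 ratio of -0.43. The median of the 11 was -0.29 and 10 of them were below 0, beside a median of -0.02 and 4885 of 9297 below 0 over all. The 5 spermatid probe sets with a ratio had a median of 0.11 and none past 2-fold. Some somatic markers differed too. The Sertoli cell median was 0.30, with 7 of 11 probe sets above 0, 4 below and none past 2-fold. The fibroblast median was 0.45, with 4 of 6 above 0 and 2 below. Fibroblast genes Dcn and Pdgfra 95079_at were higher in knockout testis, with log2 ratios of 1.03 and 1.18, whereas Pdgfra 160332_at gave -0.05. The peritubular cell median was -0.02, with none of 5 past 2-fold. The part of somatic cells in the member levels was not tested. Among 27 further genes of undifferentiated spermatogonia, 16 probe sets had a ratio and none was past 2-fold, with a median of -0.03. In a whole organ, fewer cells of a type and less RNA per cell cannot be told apart.

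In primary Sertoli cell preparations Id4 was the only member past 2-fold between the knockout ages. Its probe set 1423259_at read 4598 on the 4-week knockout array and 1819 on the 10-week knockout array, against 2838 on the wild-type array. For 1423260_at the level was 2186 at 4 weeks and 756 at 10 weeks in knockout cells, against 1227 in wild-type cells. For 1450928_at it was 2426 at 4 weeks and 1254 at 10 weeks in knockout cells, against 1653 in wild-type cells. All 3 probe sets thus put the younger knockout cells highest, the wild-type cells between, and the older knockout cells lowest.

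At 4 weeks the Id4 log2 ratios of knockout over wild type were 0.70, 0.83 and 0.55, all below 2-fold. At 10 weeks, against the same 4-week wild-type array, they were -0.64, -0.70 and -0.40. Directly between knockout ages, 10 over 4 weeks, the log2 ratios were -1.34, -1.53 and -0.95, so that 1423259_at was 2.53-fold and 1423260_at 2.89-fold lower at 10 weeks. These comparisons share arrays and are not independent. Age and genotype cannot be told apart in the comparison of 10-week knockout with 4-week wild type, since no wild-type array of 10 weeks was analysed here. All 9 values exceeded 2 SD between probe sets of bright genes, which was 0.16 at 4 weeks, 0.11 against wild type at 10 weeks and 0.18 between knockout ages. That spread covers differences between probe sets and not between animals, and the 3 Id4 probe sets carry the same source accession.

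Germ cell, spermatid and Sertoli cell markers were read on the same arrays. The 7 germ cell probe sets had a median log2 ratio of -0.57 at 4 weeks, knockout over wild type, where Id4 was higher in knockout. Between knockout ages, 10 over 4 weeks, their median was -2.98 and 6 of 7 were at least 2-fold lower, in the direction of Id4. Tex101 read 9.70 at 10 weeks and 1183 at 4 weeks in knockout cells, and Dazl 1419542_at read 27.8 at 10 weeks and 850.1 at 4 weeks. The median of the 8 spermatid probe sets had the sign of Id4 in each comparison. It was 0.33 at 4 weeks, -2.47 between knockout ages and -1.92 for 10-week knockout over wild type. In each of these, 7 of the 8 had the sign of Id4 and 1 had the opposite sign. Summed over 5 genes, spermatid levels were 13364 on the 4-week and 2850 on the 10-week knockout array, against 9600 on the wild-type array. The 17 Sertoli cell probe sets had a median of 0.24 at 4 weeks and of -0.09 between knockout ages. None was past 2-fold in either, and these medians had the signs of Id4 at smaller size. For 10-week knockout over wild type their median was 0.13, with 15 above 0 and 2 below, opposite in sign to Id4. Inha, the inhibin alpha subunit, had log2 ratios of 0.65 at 4 weeks, -0.78 between knockout ages and -0.13 for 10-week knockout over wild type. Its levels followed the order of Id4, unlike the 15 Sertoli cell probe sets above 0 in the last comparison. Inha was also among the genes nearest to Id4 in a search over these same arrays, given below. The part of cell make-up in the Id4 levels was not tested.

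**Figure D2:**
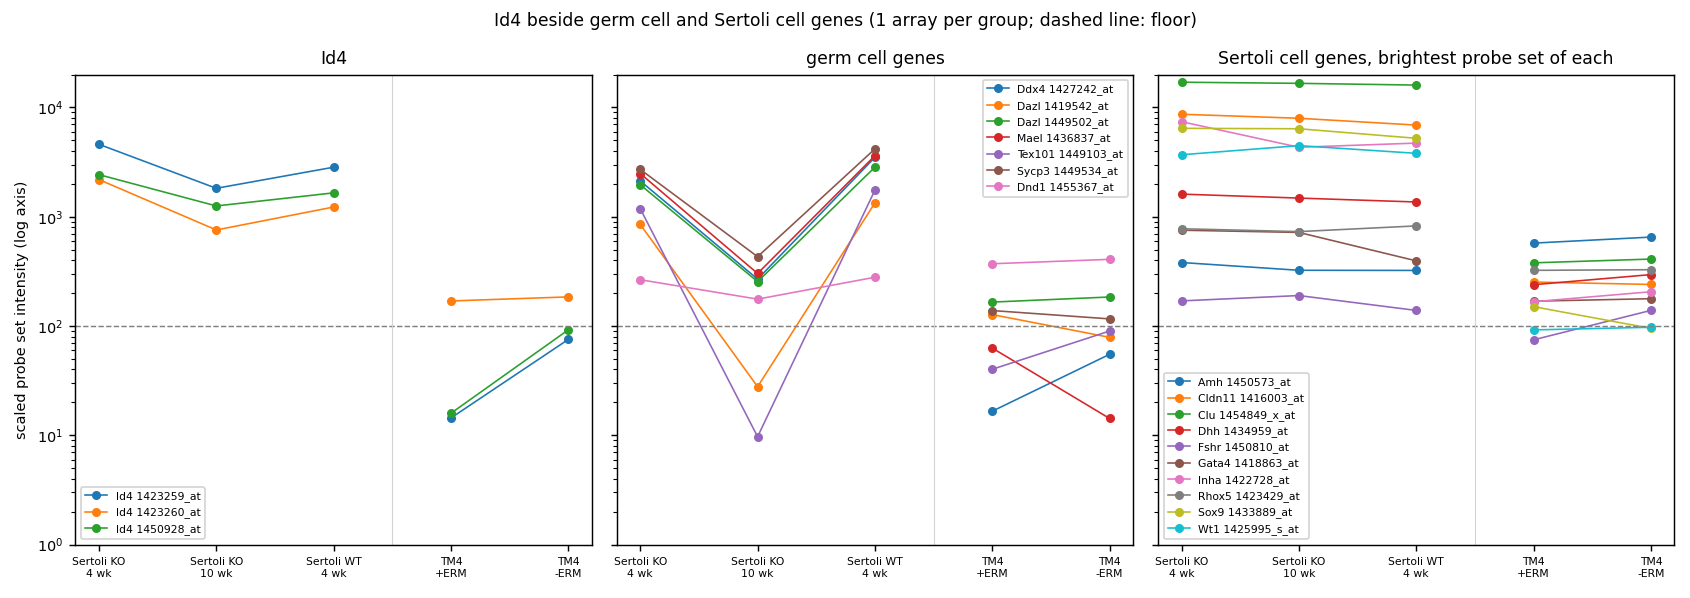
Scaled intensity (log axis) of Id4 and germ cell probe sets and of the brightest probe set of each Sertoli cell gene on the 5 cell arrays, with lines joining arrays of the same cell source and the floor of 100 dashed. Id4 is highest on the 4-week knockout array (4598 for 1423259_at), while germ cell genes are mostly highest in wild-type cells and drop on the 10-week knockout array.

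The other Id genes did not share this order. Id1 read 444 in 4-week and 343 in 10-week knockout cells, against 547 in wild-type cells. Id2 1435176_a_at read 1872 in 4-week and 2382 in 10-week knockout cells, against 2016 in wild-type cells. Id3 1416630_at read 86.4 in 4-week and 248 in 10-week knockout cells, against 216 in wild-type cells. It was therefore at least 2.16-fold lower in 4-week knockout cells than in wild-type cells and at least 2.48-fold higher at 10 than at 4 weeks. Among the partners of Id4 and Neurog3, 14 probe sets of E proteins and related factors had a ratio at 4 weeks and 15 between knockout ages, with none past 2-fold.

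Across all members at 4 weeks, 2 of 20 probe sets with a ratio were at least 2-fold lower in knockout than in wild-type Sertoli cells and none was higher, where 2.80% of 28381 probe sets were lower and 0.620% higher. The member median was 0.06, beside -0.01 over all. Both lower probe sets belong to Zbtb16, the repressor needed for stem cell self-renewal. Its 1419874_x_at read 84.3 in 4-week and 111 in 10-week knockout cells, against 277 in wild-type cells. Its 1439163_at read 194 in 4-week and 254 in 10-week knockout cells, against 487 in wild-type cells. The remaining probe set, 1427638_at, read 516 in 4-week and 350.1 in 10-week knockout cells, against 382 in wild-type cells, and so went the other way at 4 weeks.

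Zbtb16 was thus at least 2.77-fold lower on 1419874_x_at and 2.52-fold lower on 1439163_at in 4-week knockout cells than in wild-type cells, with log2 ratios of -1.47 as a bound and -1.33, while 1427638_at gave 0.43. Without probe sets whose suffix marks shared or cross-hybridising probes (_x_at, _s_at, _a_at and the like), the count of 2 became 1, and a floor raised to 0.4 of the trimmed mean also left 1. In 10-week knockout cells against the same 4-week wild-type array the log2 ratios were -1.32, -0.94 and -0.13 for 1419874_x_at, 1439163_at and 1427638_at. Both comparisons rest on the wild-type readings of that 1 array. Macrophage genes were also lower in these preparations, with a summed level over 6 markers, 1 probe set a gene, of 3048 on the 4-week and 5212 on the 10-week knockout array and 8862 on the wild-type array, and their part was not tested.

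Sall4, a zinc finger factor of undifferentiated spermatogonia, reached the floor in wild-type Sertoli cells only. Its 1424152_at read 29.3 in 4-week and 35.0 in 10-week knockout cells, against 119.5 in wild-type cells, and 1424153_s_at was below the floor on all 3 arrays. It was therefore at least 1.20-fold lower in 4-week knockout than in wild-type cells. With the floor at 0.1 its log2 ratio at 4 weeks was -1.26 as a bound, and the count of member probe sets lower in 4-week knockout cells was 3 in place of 2. Lhx1 1421951_at read 722 in 4-week and 1004 in 10-week knockout cells, against 976 in wild-type cells, with log2 ratios of -0.44 at 4 weeks and 0.04 at 10 weeks against wild type. Its 1450428_at stayed between 63.1 and 101.

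Bcl6b, the GDNF-responsive repressor, varied little in Sertoli cells, at 1951 in 4-week and 1586 in 10-week knockout cells, against 1809 in wild-type cells. Taf4b 1435303_at read 938 in 4-week and 833 in 10-week knockout cells, against 976 in wild-type cells. Its 1435302_at read 574 in 4-week and 351 in 10-week knockout cells, against 505 in wild-type cells, and 1431193_at read 217 in 4-week and 138 in 10-week knockout cells, against 154 in wild-type cells. Of the Sertoli arrays, that of 10-week knockout cells was lowest on all 3 Taf4b probe sets, with log2 ratios of -0.17 to -0.71 between knockout ages.

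Pou5f1 read 158 in 4-week and 193 in 10-week knockout Sertoli cells, against 172 in wild-type cells. Neurog3 1422312_a_at read 237 in 4-week and 231 in 10-week knockout cells, against 215 in wild-type cells, and 1432034_at was below the floor on all 3 arrays. Neither gene had an array apart from the others. Eomes 1435172_at read 691 in 4-week and 922 in 10-week knockout cells, against 830.1 in wild-type cells, while its 1426001_at read 202 in 4-week and 151 in 10-week knockout cells, against 142 in wild-type cells. Its probe sets thus ran in opposite directions at 4 weeks. Utf1 1416899_at read 135 in 4-week and 166 in 10-week knockout cells, against 186 in wild-type cells. Utf1 1458333_x_at read 249 in 4-week and 167 in 10-week knockout cells, against 297 in wild-type cells, and 1443786_at stayed between 88.1 and 125. Bcl6b, Taf4b, Pou5f1, Neurog3, Eomes and Utf1 lay within 2-fold in every comparison among the Sertoli arrays that gave a ratio.

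Between knockout ages, 2 of 19 member probe sets were at least 2-fold lower at 10 than at 4 weeks, both of Id4, and none was higher. Across 28403 probe sets, 2.88% were lower and 4.00% higher. The member median was -0.30, beside -0.02 over all. Of the 19 member probe sets, which belong to 9 genes, 13 were below 0, beside 14713 of 28403 over all. For 10-week knockout over 4-week wild type, 1 of 19 was lower, Zbtb16 1419874_x_at at 2.49-fold, and none was higher, where 3.53% of 28532 probe sets were lower and 1.73% higher. That count was 0 under a floor of 0.4 times the trimmed mean and without probe sets of shared or cross-hybridising probes. With the floor at 0.1 it was 2, since Sall4 1424152_at then also had a log2 ratio of -1.26 here.

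The further genes of undifferentiated spermatogonia had 7 of 42 probe sets, from 5 genes, at least 2-fold lower and none higher in 4-week knockout than in wild-type Sertoli cells, beside 2.80% lower and 0.620% higher over all probe sets. The 10-week knockout array differed from this: against the same wild-type array it had 2 of 42 lower and 4 higher, beside 3.53% lower and 1.73% higher over all. Cd9, a surface tetraspanin, read 266 in 4-week and 949.8 in 10-week knockout cells, against 1147 in wild-type cells. Egr2 1427682_a_at, an early response zinc finger factor, read 420.5 in 4-week and 918 in 10-week knockout cells, against 1308 in wild-type cells. Both were thus past 2-fold against wild type only on the 4-week array, the one with the high 18S reading, whose part was not tested. Between knockout ages 4 of 42 were higher and 2 lower at 10 weeks, beside 4.00% and 2.88% over all. Pou3f1 1460038_at, a POU factor of spermatogonia, read 3266 at 10 weeks and 688 at 4 weeks in knockout cells, while the adhesion protein Cdh1 read 128 at 10 weeks and 1023 at 4 weeks. Members and further genes of the same cell class thus did not run one way. Macrophages and other cells also express several of these genes, and their part was not tested. Gdnf, the signal from Sertoli cells, is not one of these genes. It read 480.2 in 4-week and 359 in 10-week knockout Sertoli cells, against 238 in wild-type cells. Its log2 ratios over wild type were 1.02 and 0.60.

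In TM4 cells with over without ERM, 1 of 19 member probe sets was at least 2-fold lower and none was higher. Across 29214 probe sets, 0.466% were lower and 0.281% higher, and the member median was -0.05 beside 0.00 over all. The lower probe set was Utf1 1458333_x_at, a coactivator of pluripotent cells, which read 134 with and 649 without ERM, or 4.83-fold lower. Its 1416899_at read 846 with and 1047 without ERM, a log2 ratio of -0.31, and 1443786_at read 67.9 with and 106 without ERM, at least 1.06-fold lower. All 3 Utf1 probe sets were lower with ERM, but only the _x_at set, whose suffix marks possible cross-hybridisation, passed 2-fold, and without sets of this kind the count was 0.

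Pou5f1 read 108 with and 204 without ERM, a log2 ratio of -0.92, just short of 2-fold and close to the floor. Zbtb16 1419874_x_at read 227 with and 156 without ERM, a log2 ratio of 0.54, while 1427638_at gave 0.24 and 1439163_at -0.38. Bcl6b, at 3405 with and 3299 without ERM, and Lhx1 1421951_at, at 683 with and 699 without ERM, differed little. Sall4 1424152_at read 514 with and 488 without ERM, and Neurog3 1422312_a_at read 544 with and 485 without ERM. Eomes 1426001_at gave 401 with and 398 without ERM, and the Taf4b log2 ratios ran from -0.22 to -0.05. Id4 reached the floor on 1423260_at alone, at 169 with and 185 without ERM.

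**Figure D3:**
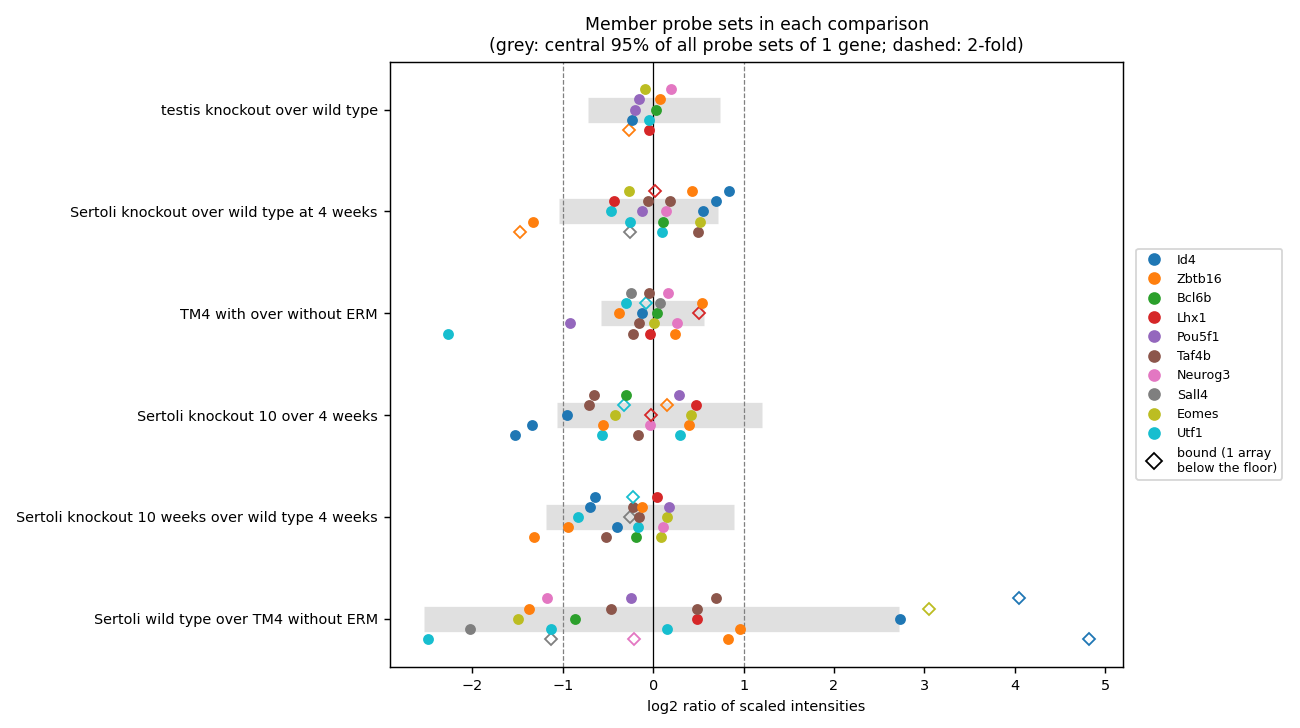
Log2 ratios of member probe sets in the 6 comparisons, coloured by gene, with open diamonds for bounds, dashed lines at 2-fold and grey bars for the central 95% of all probe sets of 1 gene. In testis the members lie between -0.27 and 0.19, and the widest spread, from -2.49 to 4.83, is between wild-type Sertoli cells and TM4 without ERM.

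Wild-type Sertoli cells and TM4 without ERM differed most in the members, as in the whole array. Of 21 probe sets, 4 were at least 2-fold higher in Sertoli cells and 7 lower, or 19.0% and 33.3%. Across 30846 probe sets, 16.8% were higher and 15.2% lower. The member median was -0.21, beside -0.07 over all. On the values as deposited, where TM4 arrays are dimmer throughout and the median of all ratios lies 0.70 higher, the split was 9 higher and 2 lower. Without probe sets of shared or cross-hybridising probes, 4 were lower. These preparations differ in cell make-up: the summed germ cell markers were at 16164 in wild-type Sertoli cells and at 867 in TM4 without ERM. The part of germ cells in the member levels was not tested.

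Id4 made up 3 of the 4 higher probe sets. Its 1423259_at, at 2838 in wild-type Sertoli cells and 75.4 in TM4 without ERM, was at least 28.4-fold higher in Sertoli cells. For 1450928_at, at 1653 in Sertoli cells and 92.2 in TM4, the difference was at least 16.5-fold, and for 1423260_at, at 1227 in Sertoli cells and 185 in TM4, it was 6.64-fold. Probe sets 1423259_at and 1450928_at thus gave the highest member ratios of this comparison. Id2 1435176_a_at was also higher in Sertoli cells, at 2016 in Sertoli cells and 351 in TM4 without ERM, whereas Id3 was lower, at 216 in Sertoli cells and 757 in TM4 without ERM.

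Sall4 and Utf1 ran the other way. Sall4 1424152_at read 119.5 in wild-type Sertoli cells and 488 in TM4 without ERM, 4.08-fold lower in Sertoli cells, and 1424153_s_at, at 71.8 in Sertoli cells and 219 in TM4, was at least 2.19-fold lower. Its relative Sall1 (1450489_at) was higher in Sertoli cells, at 1411 in Sertoli cells and 167 in TM4, a log2 ratio of 3.08, and Sall2 (1416638_at) likewise, at 414 in Sertoli cells and 95.7 in TM4. Utf1 1416899_at read 186 in Sertoli cells and 1047 in TM4 without ERM, 5.63-fold lower in Sertoli cells, and 1458333_x_at, at 297 in Sertoli cells and 649 in TM4, was 2.18-fold lower, while 1443786_at gave a log2 ratio of 0.15. Neurog3 1422312_a_at, at 215 in Sertoli cells and 485 in TM4, was 2.26-fold lower in Sertoli cells.

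**Figure D4:**
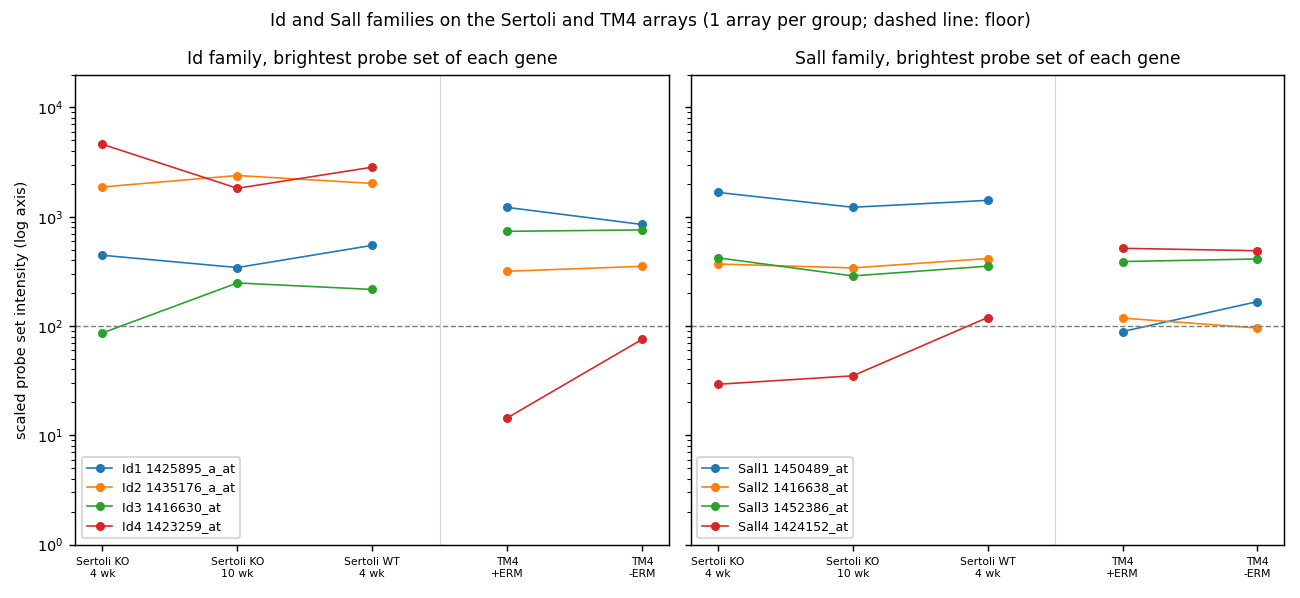
Scaled intensity (log axis) of the brightest probe set of each Id and Sall gene on the 5 cell arrays, with lines joining arrays of the same cell source and the floor of 100 dashed. Id4 and Sall1 are high in Sertoli cells (2838 and 1411 in wild type) and low in TM4 without ERM (75.4 and 167), while Sall4 is the reverse (119.5 and 488).

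Eomes and Zbtb16 gave no single answer in this comparison. Eomes 1435172_at read 830.1 in wild-type Sertoli cells and 99.6 in TM4 without ERM, at least 8.30-fold higher in Sertoli cells, whereas 1426001_at, at 142 in Sertoli cells and 398 in TM4, was 2.81-fold lower. The probe sets of this gene therefore do not settle its direction. Zbtb16 1427638_at, at 382 in Sertoli cells and 992 in TM4, was 2.60-fold lower in Sertoli cells. Zbtb16 1439163_at read 487 in Sertoli cells and 249 in TM4, a log2 ratio of 0.97, and 1419874_x_at read 277 in Sertoli cells and 156 in TM4, a log2 ratio of 0.83. Bcl6b, Lhx1, Pou5f1 and Taf4b stayed within 2-fold. Bcl6b read 1809 in wild-type Sertoli cells and 3299 in TM4 without ERM, a log2 ratio of -0.87.

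Over the 5 arrays, with readings below the floor set to it, the brightest probe set of Id4 spanned a log2 range of 5.52, that of Eomes 3.21, of Utf1 2.96, of Sall4 2.36, of Zbtb16 1.74, of Neurog3 1.34 and of Bcl6b 1.10, and those of Pou5f1, Lhx1 and Taf4b spanned 0.92, 0.55 and 0.53. For the 7 with a range of at least 1, the nearest of 7892 genes were sought by root mean square difference of centred log2 levels over the 5 arrays, as a description of 5 points that are largely set by the contrast of Sertoli cells with TM4. Nearest to Id4 were Prss35, at a difference of 0.09, Inha at 0.22 and Add3 at 0.25. Prss35 read 4191 in 4-week and 1870.4 in 10-week knockout Sertoli cells, against 3111 in wild-type Sertoli cells, and was below the floor in TM4. Inha read 7405 in 4-week and 4320.5 in 10-week knockout Sertoli cells, against 4717 in wild-type Sertoli cells. The nearest to Eomes were Cyp2c38, Nxpe3 and Lpin1, to Utf1 Reep5, Ccnjl and Gusb, and to Sall4 Carmil3, Dctpp1 and Prim1. Those of Zbtb16 were C8g, Arl2 and Atp5j2, of Neurog3 Ckb, Sim2 and Ntmt1, and of Bcl6b Pcca, Nlrc3 and Tmem216. The probe set used was 1435172_at for Eomes and 1427638_at for Zbtb16. Other probe sets of both genes ran the opposite way between wild-type Sertoli cells and TM4 without ERM. Their neighbours therefore hold only for the probe set taken.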

How the data were processed

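The authors deposited 1 linear intensity per probe set and array, never below 1. What software and scaling they used is not given in the sources at hand. Each array was scaled to a trimmed mean of 500 after leaving out control probe sets and the values beyond percentiles 2 and 98. Values below a floor of 100 (0.2 of that mean) were set to it before log2 ratios were taken. Ratios of at least 2-fold were counted over probe sets of 1 gene (34945 for cells and 10833 for testis). The array number, 1 per group, limits the precision, and no p-value was possible. The spread between probe sets came from the brightest 2 of each gene. All members and their paralogues could be named, and of other lists up to 2 genes at each end past 2-fold with the brighter array at 200 or above. Members and lists were chosen with earlier results of these data known. Alternatives were the values as deposited, centred ratios, quantile normalization, other floors and dropping probe sets whose names mark shared or possibly cross-hybridising probes. Steps were tested on simulated data. Python 3.11.15, numpy 2.4.6, pandas 2.3.3 and matplotlib 3.10.9 were used.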

Additional observations from a re-analysis of the deposited data

Results flagged for a closer look

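The Id4 log2 ratios of knockout over 4-week wild-type Sertoli cells had opposite signs at the 2 knockout ages. Each probe set was higher in 4-week knockout cells and lower in 10-week knockout cells than on the same 4-week wild-type array. The 10-week log2 ratio minus the 4-week log2 ratio was -1.34 for 1423259_at, -1.53 for 1423260_at and -0.95 for 1450928_at. Both ratios share the wild-type array, so the difference equals the log2 ratio of the knockout ages. No wild-type array of 10 weeks was analysed here, so age and genotype cannot be told apart in the 10-week ratio. Whether the effect of the label changes sign with age therefore cannot be decided. The difference was not tested, since each group has 1 array.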

How the results depend on the processing

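Of the member ratios recomputed under other settings, 475 moved by less than the spread between probe sets and 40 by more, of which 21 were on the values as deposited, 14 under a floor of 0.4 times the trimmed mean and 5 under one of 0.1. No count changed under centring or quantile normalization by over 1.5 times. Member probe sets at least 2-fold lower in 4-week knockout Sertoli cells numbered 1 with the floor at 0.4 and 1 without probe sets of shared or cross-hybridising probes. With the floor at 0.1 they numbered 3, in place of 2. In TM4 the count lower with ERM was 0 without those probe sets, in place of 1. For 10-week knockout against 4-week wild type it was 2 with the floor at 0.1, 0 with the floor at 0.4 and 0 without those probe sets, in place of 1. For wild-type Sertoli cells against TM4 without ERM it was 9 higher and 2 lower on the values as deposited, and 4 lower without those probe sets, in place of 4 and 7. Neurog3 1422312_a_at was among the lower sets left out there, for a suffix of shared probes. The cause was not tested beyond what each setting leaves out. Over all scalings and floors, Id4 at 4 weeks stayed between 0.50 and 0.85 in log2 ratio, and between -1.53 and -0.93 between knockout ages. Signal over background limits Sall4 1424153_s_at, Lhx1 1450428_at and Neurog3 1432034_at, each below the floor on 3 of the 5 cell arrays. Groups of 1 array leave no replicate to omit.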
